A study of Drosophila melanogaster with 4 samples.

Results

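The stretches of the Drosophila melanogaster genome described here are the 50-kb windows in which no region enriched for dMi-2 was called. Windows of 50 kb were tiled from position 1 of the 6 major chromosome arms (2L, 2R, 3L, 3R, 4 and X) in release 5 of the genome, and the members were selected by a coverage of 0 bp in the combined list of dMi-2 regions. They numbered 363 of 2405 windows, or 15.1%. Since coverage in the combined list chose them, their number, their place and their clustering are given as a description without a test, and 2 ChIP replicates allow no test over samples. dMi-2 was mapped by ChIP-seq, in which crosslinked chromatin is pulled down with an antibody and its DNA sequenced, in wild-type embryos of the Oregon-R strain, from the 14 to 16 h stage, with the antibody Q4443 against dMi-2. The labels give 2 ChIP libraries and 2 input libraries. The 2 ChIP replicates have a list of regions each, and a combined list stands beside them. Nothing in the labels tells whether separate embryo collections lay behind the replicates, so differences between them may be technical. Whole embryos were used, so a window without a region is one in which the mixture of all embryonic cells gave no called enrichment. The lists hold no read counts, so the depth behind them is unknown, and they hold no marker of tissue or stage against which the labels could be checked.

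The dMi-2 protein is a chromodomain helicase that moves nucleosomes at the cost of ATP. In Drosophila it is the motor subunit of the NuRD complex, which pairs remodelling with histone deacetylation, and of the dMec complex, and it is found both at repressed genes and along transcribed ones. The arms of the fly genome end, on their centromeric side, in pericentric heterochromatin, which is rich in repeats, poor in genes and marked by methylated histone H3 lysine 9. Some heterochromatic sequence is on separate scaffolds outside the tiled arms, and how far each tiled arm reaches into heterochromatin was not examined. Chromosome 4 is small and carries much heterochromatin interspersed with its genes. No genome sequence or annotation in release 5 coordinates was used here, so the windows are given by position, without genes or bases.

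Called regions covered 21.0% of the 6 arms in the combined list, 8.06% in the replicate 1 list and 11.6% in the replicate 2 list. The threshold between empty and filled windows was narrow at its lower end. The 363 empty windows had 0 bp by the rule, and the sparsest 10 of the 2042 other windows held 51 to 732 bp of a single region each. The sparsest was on X at 20450001 to 20500000 with 51 bp, followed by 2R at 11050001 to 11100000 with 109 bp and 3L at 17700001 to 17750000 with 201 bp. In all, 6 of the 2042 filled windows were covered to 1% or less and 236 held 1 region only.

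Empty windows were found on every major arm, with the highest share on chromosome 4 and the lowest on 2R. Chromosome 4 had 8 empty windows of 27, or 29.6%. Arm 2L had 87 of 460 (18.9%) and 3L had 81 of 490 (16.5%). Arms 3R and X followed with 77 of 558 (13.8%) and 60 of 448 (13.4%), and 2R had 50 of 422 (11.8%). Arm 2L thus held 24.0% of all empty windows on 19.1% of the tiled sequence, and 2R held 13.8% on 17.5%.

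The replicate lists, taken one at a time, gave higher shares and the same arms at both ends of the order. On chromosome 4, 66.7% of windows were without a region in replicate 1 and 66.7% in replicate 2. On 2L the shares were 37.4% in replicate 1 and 29.6% in replicate 2. On 2R they were 25.8% in replicate 1 and 23.0% in replicate 2. The shares of the other 3 arms ran from 30.6% to 31.7% for replicate 1 and from 26.5% to 27.2% for replicate 2, and they took a different order in each list. Their differences from each other were smaller than the differences between the replicates.

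**Figure D1:**
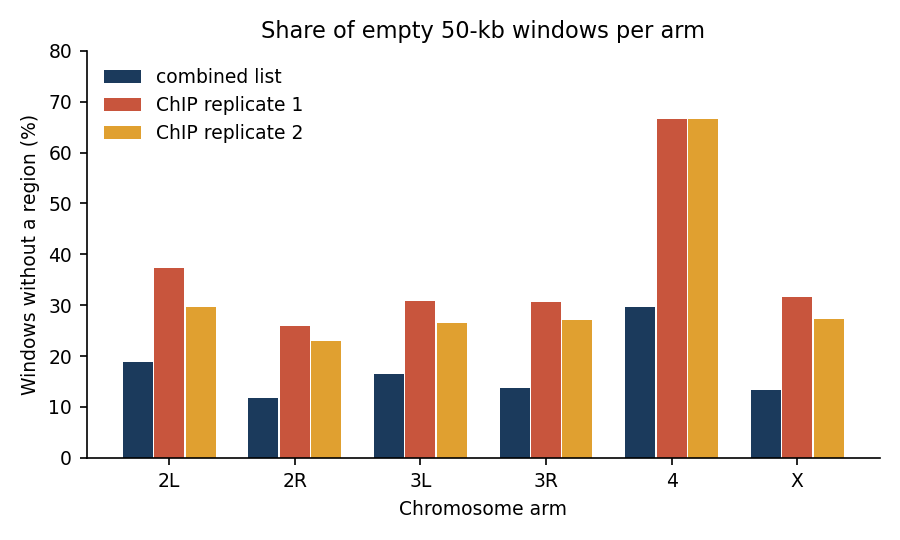
Share of 50-kb windows without a called dMi-2 region (y axis, percent) on each major arm (x axis), with 1 bar for the combined list and 1 for each ChIP replicate. Chromosome 4 stands highest in all 3 lists (29.6%, 66.7% and 66.7%), and 2R stands lowest (11.8%, 25.8% and 23.0%).

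Most empty windows stood in short runs, and a few long runs lay at the centromeric ends. The 363 windows formed 218 runs of adjacent empty windows. Of these runs, 144 (66.1%) were single windows, 42 held 2 windows and 23 held 3. The remaining 9 runs held 4 to 15 windows and 66 windows together. Of the 361 empty windows that had a further window on their high-coordinate side, 145 (40.2%) were followed by another empty one, whereas 15.0% of all such next windows were empty. More than 2 Mb from the centromeric ends, and without chromosome 4, the shares were 82 of 264 (31.1%) and 12.1%.

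The longest run was on 3L at 23750001 to 24500000, where 15 windows in a row were empty. It lay in a region-free stretch of 811 kb that reached the centromeric end of the arm. A further run of 12 windows followed on 3L at 22950001 to 23550000, in a stretch of 633 kb. On 2R, 9 windows were empty from 1 to 450000, in a stretch of 481 kb that began at the first base of the arm. On 2L, 7 windows were empty from 22650001 to 23000000, in a stretch of 367 kb that ran to the centromeric end. These 4 runs were the only ones of 7 or more windows, and the edge of each that faces the centromere lay within 1 Mb of the centromeric end of its arm.

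The replicate lists left still longer stretches at the same places. In replicate 1 the 15-window run and the 12-window run of 3L lay in 1 region-free stretch of 1655 kb, and in replicate 2 in 1 of 1601 kb. On 2R the stretch around the 9-window run was 1008 kb long in replicate 1 and 1010 kb in replicate 2. On 2L it was 890 kb in replicate 1 and 579 kb in replicate 2. The longest runs of each replicate list taken on its own were on the same 3 arms, with 32 windows on 3L, 20 on 2R and 17 on 2L in replicate 1. In replicate 2 they held 31 windows on 3L, 20 on 2R and 11 on 2L.

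Between these long runs stood a few narrow regions of the combined list that neither replicate list held. In the 200 kb between the pair of 3L runs, the window 23600001 to 23650000 was also empty. These 200 kb held 3 regions, which together spanned 4.29 kb. They had scores of 0.438, 2.72 and 0.248, where the score is the authors' own value per region, on a scale they do not name, with a median of 0.442 over the combined list. The middle one, at 23663326 to 23664326, was 1001 bp wide, the smallest width in the list, and ranked 17 of 9388 by score. On 2R, 100 kb between the 9-window run and a run of 4 windows held 2 regions with scores of 0.295 and 0.360. Past the run of 4, the 100 kb before the next run of 3 held a single region, at 799288 to 800288, of 1001 bp with a score of 1.52 and rank 47. On 2L a single region of 1409 bp, with a score of 0.303, parted the 7-window run from a run of 3. All 7 of these regions overlapped no region of replicate 1 or replicate 2, and they were 1001 to 1869 bp wide. Of the regions that border no run, 40.2% overlapped neither replicate. Among those of 1001 to 1297 bp, 0% overlapped both replicates, and among those of 1297 to 1801 bp, 0.505% did.

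Away from the centromeric ends the longest runs were shorter. The longest there was on 3R at 23850001 to 24100000, with 5 windows in a stretch of 318 kb, 3.81 Mb from the other end of the arm. On 2L, 5 windows were empty at 16950001 to 17200000 in a stretch of 293 kb. A further 5 on 2L were empty at 11550001 to 11800000, in a stretch of 285 kb near the middle of the arm. The region-free stretch around this last run had nearly the same length in all 3 lists, with 286 kb in replicate 1 and 286 kb in replicate 2. Around the 2L run at 16950001 the stretch was 498 kb in replicate 1 and 332 kb in replicate 2. Around the 3R run it was 340 kb in replicate 1 and 336 kb in replicate 2.

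The other long runs lay on 2R, 3R, X and chromosome 4. On 2R, 4 windows were empty at 550001 to 750000 in a stretch of 291 kb, and both neighbouring windows were sparse, at 3.74% and 1.43% covered. On 3R, 4 windows were empty at 13000001 to 13200000 in a stretch of 226 kb. Arm X had 6 runs of 3 windows as its longest, and the one in the longest region-free stretch was at 20700001 to 20850000, 1.57 Mb from the centromeric end, in 234 kb without a region. The longest on chromosome 4 held 3 windows at 1150001 to 1300000, at the end away from the centromere. Arm X thus had no run of 4 or more windows in the combined list, although 41 runs lay on it. The replicate lists had longer ones. In replicate 1, a run of 9 windows lay on X at 21950001 to 22400000. In replicate 2, a run of 8 lay on chromosome 4 at 100001 to 500000.

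The 3R run at 23850001 had a close neighbour. After 100 kb the next run, of 3 windows, began at 24200001. Unlike the places between the 3L and 2R runs, these 100 kb held 6 regions that spanned 17.6 kb, and 2 of them overlapped both replicates. The wider of these was 8153 bp wide with a score of 0.699, and the other was 3347 bp wide with a score of 0.750. Over all regions that border no run, 32.0% overlapped both replicates. That share rose with width, from 0% in the narrowest of 5 width classes to 85.1% in the widest, and the places between runs were not compared at equal width. On X, the 200 kb between the 3-window runs that end at 21450000 and begin at 21650001 held 8 regions. Of these, 3 overlapped both replicates. Within the 200 kb the window 21550001 to 21600000 was also empty. The last of the 8, of 1001 bp at 21626662 to 21627662, had the score ranked 2 of the whole list, at 3.40, and overlapped neither.

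**Figure D2:**
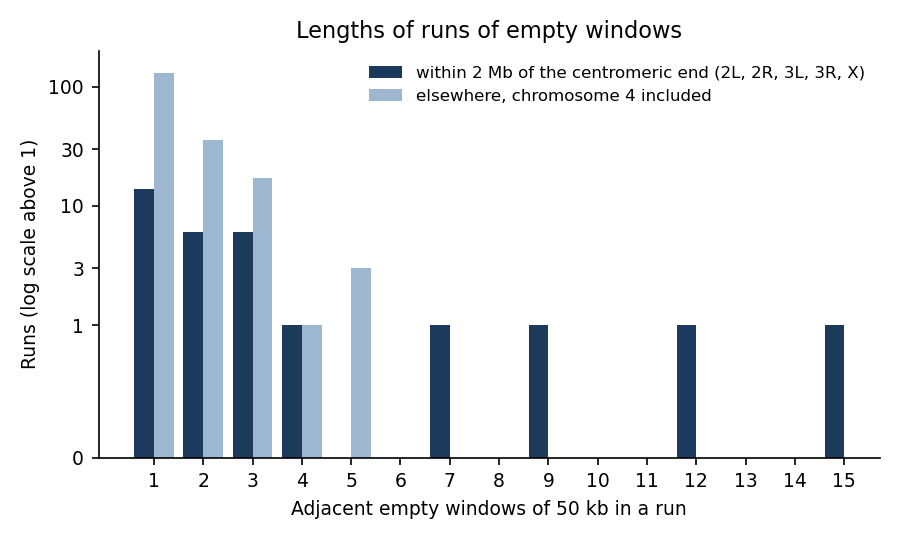
Number of runs (y axis, log scale above 1) by the number of adjacent empty 50-kb windows they hold (x axis), in the combined list, with runs within 2 Mb of the centromeric end left of all others. The runs of 7, 9, 12 and 15 windows all lie within 2 Mb of a centromeric end, and the longest of the others hold 5.

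Empty windows were concentrated in the 2 Mb next to the centromeric end on 2L, 2R, 3L and X, and not on 3R. The centromeric end is the last base of 2L, 3L and X and the first base of 2R, 3R and 4. Over the 5 long arms, 91 of 200 windows (45.5%) within 2 Mb of that end were empty, against 264 of 2178 (12.1%) elsewhere. In replicate 1 the shares were 66.0% within 2 Mb and 28.1% elsewhere, and in replicate 2 they were 59.0% and 23.8%. Pooled over these arms, the first Mb had 57.0% of windows empty and the second 34.0%. From there outward the pooled share in each class of distance lay between 10.0% and 14.0%. Single arms departed from this. The second Mb had 13 of 20 empty on 3L and 4 of 20 on 2L. On 2L, 13 of 40 were empty from 4 to 6 Mb and 10 of 40 from 6 to 8 Mb. On 3R, 6 of 20 were empty from 3 to 4 Mb. The windows within 2 Mb were covered to 9.46% on average, against 22.2% elsewhere.

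By arm, 30 of 40 windows (75.0%) in the centromeric 2 Mb of 3L were empty, against 11.3% elsewhere on 3L. On 2R the shares were 22 of 40 (55.0%) and 7.33%. On 2L they were 17 of 40 (42.5%) and 16.7%, and on X 17 of 40 (42.5%) and 10.5%. On 3R they were 5 of 40 (12.5%) and 13.9%, so that its centromeric 2 Mb was no emptier than the rest of the arm. The replicates showed the same exception, with 17.5% within 2 Mb and 31.7% elsewhere on 3R in replicate 1, and 12.5% and 28.2% in replicate 2. Without the centromeric 2 Mb, 2R still had the lowest share of the 5 long arms and 2L the highest in the combined list and in replicate 1. In replicate 2, 2R was again lowest with 16.8%, but 3R was highest with 28.2%, against 27.4% on 2L.

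Across the whole arms, the median distance of empty windows from the centromeric end was 3.30 Mb on 2R, where all windows had a median of 10.5 Mb. It was 7.99 Mb on 3L, against 12.3 Mb for all windows, 7.81 Mb on 2L, against 11.5 Mb, and 9.22 Mb on X, against 11.2 Mb. On 3R the medians were 13.3 Mb and 13.9 Mb. At the other end of the arms, toward the telomere, 17 of 200 windows (8.50%) within 2 Mb were empty. There the share ran from 1 of 40 on 3L to 6 of 40 on 2L. The single one on 3L was the first window of the arm, at 1 to 50000.

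Pooled over the 5 long arms, runs in the centromeric 2 Mb were longer than elsewhere. These 2 Mb held 31 runs, of which 14 (45.2%) were single windows, and 4 runs held 7 or more. Elsewhere on the 5 long arms there were 182 runs, of which 127 (69.8%) were single windows and none held more than 5. The runs of 7 or more were on 3L, 2R and 2L only. On 3R the longest run held 2 windows within 2 Mb and 5 elsewhere, and on X it held 3 in both places. The region-free stretches around the runs had a median of 133 kb within 2 Mb and 102 kb elsewhere. The regions still present in the centromeric 2 Mb numbered 405, with a median width of 1983 bp and a median score of 0.429, against 8897 elsewhere with 2063 bp and 0.443. Of the 405, 30.1% overlapped both replicates, against 32.1% elsewhere. These pooled values rest largely on 3R, which held 193 of the 405. The centromeric 2 Mb of 2R held 39 regions with a median width of 1787 bp and a median score of 0.391, of which 12.8% overlapped both replicates and 53.8% neither. On 2L there were 76, with 1640 bp and 0.385, of which 28.9% overlapped both and 50.0% neither. On X there were 70, with 1726 bp and 0.492, of which 28.6% overlapped both and 44.3% neither. On 3L there were 27, with 2201 bp and 0.426, of which 37.0% overlapped both and 25.9% neither. The 193 on 3R had 2143 bp and 0.432, with 33.7% overlapping both and 33.7% neither. Over all 405, 40.0% overlapped neither, against 40.3% of the regions elsewhere on the 5 long arms. Overlap with both replicates rose with region width, and the shares per arm were not compared at equal width.

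**Figure D3:**
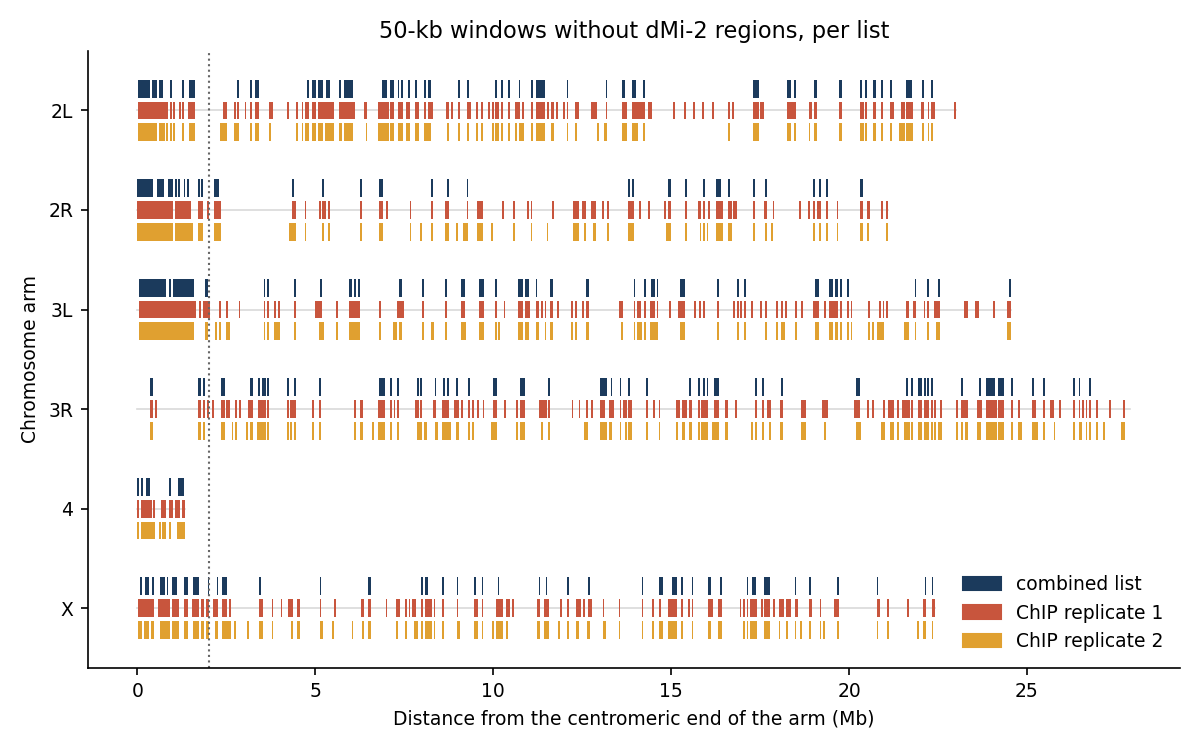
Position of each 50-kb window without a dMi-2 region, by distance from the centromeric end of its arm (x axis, Mb), for each major arm (rows), with a lane for the combined list above the lanes of ChIP replicates 1 and 2. Left of the dotted line at 2 Mb, the windows fuse into long blocks on 3L, 2R and 2L, and 3R has 5 empty windows of 40.

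**Figure D4:**
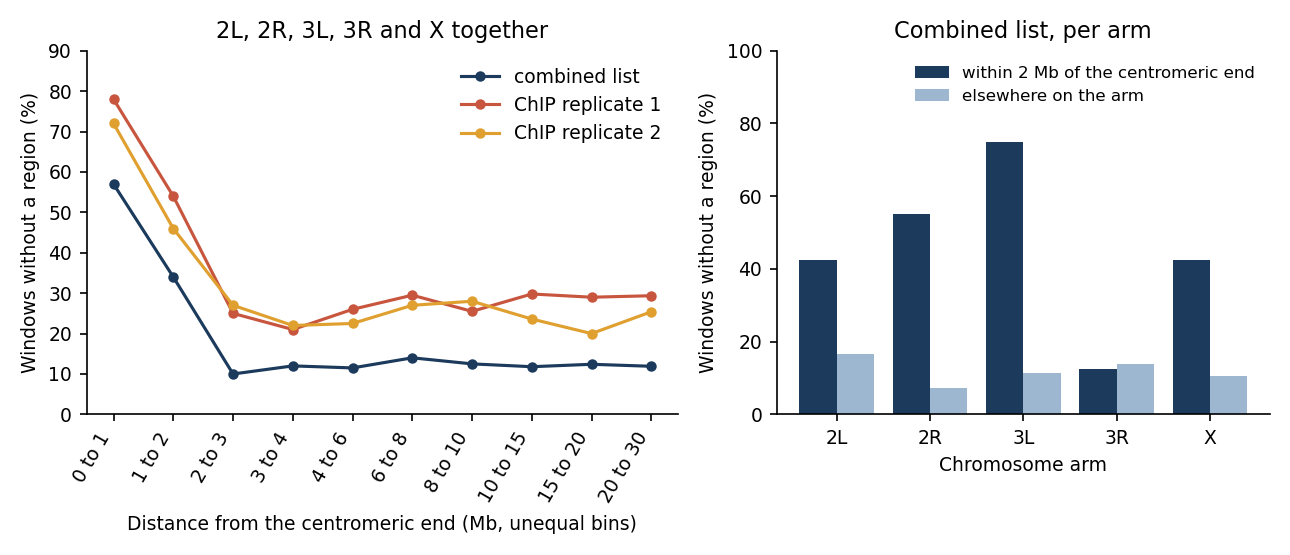
Share of empty 50-kb windows (y axes, percent). Left, by class of distance from the centromeric end on the 5 long arms, for the combined list and both replicates, with shares in the combined list of 57.0% in the first Mb, 34.0% in the second and 10.0% to 14.0% beyond. Right, within 2 Mb of that end and elsewhere, per arm, where 3R alone has a lower share within 2 Mb (12.5%) than elsewhere (13.9%).

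Nearly all empty windows were free of regions in both replicate lists. In replicate 1, 360 of the 363 empty windows (99.2%) had 0 bp, against 403 of the 2042 other windows (19.7%) and 31.7% of all windows. In replicate 2 all 363 had 0 bp, against 291 of the other windows (14.3%) and 27.2% of all. Both replicates together left 360 of the 363 free, against 215 of the others (10.5%) and 23.9% of all. Averaged over all rotations of a replicate list along its arm in steps of whole windows, the empty windows free of regions would number 118 in replicate 1 and 101 in replicate 2. The combined list was made for the same replicate set, so this agreement is not independent of the rule.

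The reverse did not hold to the same degree. Of the 763 windows free of regions in replicate 1, 47.2% were empty in the combined list, and of the 654 in replicate 2, 55.5% were. Of the 575 windows free in both replicates, 360 (62.6%) were empty in the combined list and 215 (37.4%) were not. The combined list filled these 215 with 370 regions, of a median width of 1287 bp and a median score of 0.421, and covered them to a median of 3.37% and at most 18.4%. In 128 of the 215 it placed a single region.

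The 3 empty windows with replicate sequence all held a region of replicate 1. On 3R, in the window 13150001 to 13200000 of the 4-window run, replicate 1 had a region of 1593 bp at 13181956 to 13183548, with a score of 0.663 that ranked 1528 of 4213. On chromosome 4, in the window 1200001 to 1250000, it had one of 1349 bp at 1234167 to 1235515, with a score of 0.417 that ranked 4166. On X, the window 7650001 to 7700000 held 865 bp of a region of 1313 bp that began in the window before it, with a score of 0.648 and rank 1729. No region of the combined list or of replicate 2 overlapped any of the 3. The nearest combined region was 20.9 kb away on 3R, 80.6 kb on chromosome 4 and 17.3 kb on X.

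Measured base by base, the region-free stretches were longer than the tiled runs, and longer still in the replicate lists. The 218 stretches that hold the runs had a median length of 105 kb and spanned 53.8 to 811 kb. Around the same runs, the median stretch was 156 kb in replicate 1 and 150 kb in replicate 2. Runs in which the replicate itself had a region were left out. These medians count a stretch once per run, and neighbouring runs can share 1 replicate stretch. The replicate lists also held fewer regions, 4213 and 5359 against 9388. In the combined list the stretches together made up 26.9 Mb, or 22.3% of the arms. Replicate 1 had some sequence in 19 of them and replicate 2 in 47, and 10 of the 218 held more than 200 bp of either replicate. These were 67 replicate regions, of which 63 reached across a border of the stretch. Tiling also leaves gaps out. Of 351 region-free stretches of 50 kb or more in the combined list, 133 held no whole window, all of them shorter than 100 kb.

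Outside the empty runs, coverage returned to near or somewhat below the mean of the arm, with a sparser first window. The first window outside a run was covered to a mean of 16.0% and a median of 12.6%, over 431 edges. The filled windows that were not next to a run had a mean of 26.7% and a median of 24.8%. Of the first windows outside, 24.1% were covered to less than 5%, against 7.19% of the filled windows farther away, and 8 of the 431 were covered to 50% or more. The mean over all rotations of the list along its arm, which is the mean coverage of the arm, was 20.6% at these edges. That mean includes empty windows, whereas the first window outside a run is filled by definition. From the second window to the tenth the means lay between 18.4% and 20.9%. Of these windows 13.9% to 20.5% were again empty, against 15.1% of all windows.

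The replicate lists gave the same shape at lower levels. In replicate 1 the first window outside was covered to 6.10%, the second to 7.73%, and the mean over rotations was 7.88%. In replicate 2 the values were 8.47%, 11.4% and 11.4%.

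A tiled window can include the end of a region-free stretch, so coverage was also read outward from the first region past each stretch. In the first 5 kb, which start inside that region, 52.0% was covered in the combined list, and in the next 5 kb 22.7%. From there to 50 kb the mean was 21.0%, close to the 20.6% over rotations. Read in the same way from the edges of all regions, 60.9% was covered in the first 5 kb, 33.6% in the next and 27.4% from 10 to 50 kb. In replicate 1, 8.42% was covered from 10 to 50 kb outward of the runs, against 10.7% from the edges of all regions. In replicate 2 the shares were 12.0% and 15.4%. At the 364 edges over 2 Mb from the centromeric ends the combined list reached 23.2% from 10 to 50 kb. The windows over 2 Mb from those ends on the 5 long arms were covered to 22.2% on average.

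**Figure D5:**
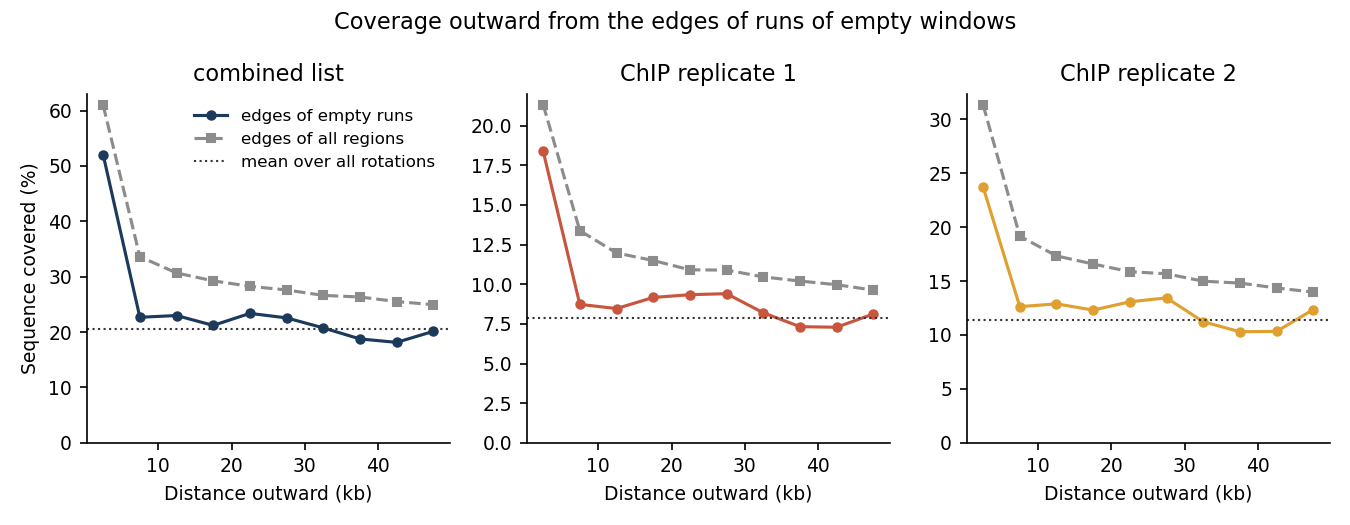
Mean share of sequence covered (y axes, percent) in 5-kb bins outward from the first region past a run of empty windows (circles) and from the edges of all regions (squares), for the combined list and both replicates, each on its own scale. The dotted line is the mean over all rotations of the list, and beyond 5 kb the circles lie near it (20.6% in the combined list) and below the squares.

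The regions that border the runs differed little from the others in width and score. There were 414 of them, with a median width of 1950 bp and a median score of 0.440, against 2059 bp and 0.442 for the 8927 regions that border none. Of the bordering regions, 126 (30.4%) overlapped both replicates and 185 (44.7%) neither, against 32.0% and 40.2% of the others. With all regions put into 5 classes of width of about equal size, 3.10% of the widest class bordered a run, against 4.60% to 4.90% of each of the others. The share of edges with a replicate region close by is given here beside that of all regions, as a description. A replicate 1 region lay within 1 kb outward of 132 of the 431 edges (30.6%), against 30.2% for the edges of all regions, and a replicate 2 region within 1 kb of 178 (41.3%), against 45.0%. Within 10 kb outward the shares were 51.7% of run edges and 61.3% of all edges in replicate 1, and 61.0% and 72.9% in replicate 2. No replicate 1 region lay within 50 kb outward at 22.0% of the run edges, against 11.4% of all edges. In replicate 2 these shares were 18.8% and 7.27%.

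A few single empty windows had well-covered neighbours, named here by the mean of the windows before and after them. The highest mean was at 3R, 13550001 to 13600000, where the windows before and after it were covered to 59.7% and 49.3%. The region-free stretch there was 54.0 kb long in the combined list, 54.8 kb in replicate 1 and 74.4 kb in replicate 2, and it began at the end of a region of 11.8 kb. On X, the window 6800001 to 6850000 had neighbours covered to 36.9% and 56.5%, and its stretch of 73.6 kb measured 117 kb in replicate 1 and 84.1 kb in replicate 2. On 3L, the window 20950001 to 21000000 had 1 sparse and 1 dense neighbour, covered to 13.2% and 76.0%, and its stretch of 54.9 kb measured 55.4 kb in replicate 1 and 55.9 kb in replicate 2. On 3L at 16500001 to 16550000 the neighbours were covered to 39.5% and 47.1%, and the stretch of 68.9 kb measured 77.0 kb in replicate 1 and 72.5 kb in replicate 2. On 3R at 22300001 to 22350000 they were covered to 32.0% and 45.7%, and the stretch of 62.4 kb measured 70.2 kb and 68.1 kb in replicates 1 and 2. All 5 were free of regions in both replicates. Of the 213 runs with a window on each side, 25 had both neighbours covered to 20% or more, 88 had 1 such neighbour and 100 had none.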

How the data were processed

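The authors deposited a list of enriched dMi-2 regions in GFF3 format for each of the 2 ChIP replicates and a combined one. Reads were aligned with Bowtie 0.12.7, per the submitters' processing notes, and positions are those of FlyBase release 5, as the file headers state. How regions were called, how reads were filtered and how the replicates were combined is not given in the sources used here. Each region has a start, an end and a score that the authors deposited without naming its scale. Scores were used only to describe and rank regions within a list.

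Whole windows of 50 kb were tiled from position 1 of each major arm, with arm lengths from the file headers, and partial last windows were left out. Covered bases were counted with overlapping regions merged, and 1 end given in exponent notation was expanded. The count of empty windows was checked with bedtools 2.31.1 (363), and the code was tested on simulated data with planted gaps. The mean over rotations was computed exactly from arm means, without random draws. No test was run, because coverage chose the windows. The named runs are the 10 longest, the longest of each arm, the 3 longest over 2 Mb from a centromeric end, and the 5 with the most covered neighbours. The windows with most replicate sequence are named too, where the rule asked for 5 and 3 exist. The regions between neighbouring long runs were chosen after their values were seen. The windows and rules were chosen with earlier results of these data known. The software was Python 3.11.15, numpy 2.4.6, pandas 2.3.3 and matplotlib 3.10.9.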

Additional observations from a re-analysis of the deposited data

How the results depend on the processing

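Of 33 alternative values, 16 stayed within 1.5 times a count or within 1 SD between the replicates, and 17 moved further. Tiling from 25 kb, which shifts the windows without wrapping them round the arm ends, gave 347 empty windows. Counting windows covered to at most 1% as empty gave 369, and keeping partial last windows gave 367. No value moved under these settings. Using regions at least as wide as the smallest replicate region (1301 bp) gave 450 empty windows and 51.5% within 2 Mb of the centromeric end. Using regions at or above the median score gave 658 empty windows, 72.6% of them free of both replicates, 14.1% coverage next to runs and 61.0% empty within 2 Mb. With 1 replicate list in place of the combined list, the empty windows numbered 654 to 763, the longest run held 31 to 32 windows and 59.0% to 66.0% of the centromeric 2 Mb was empty. Empty windows were free of 1 replicate in 99.2% to 100% of cases. The SD for that share came from these same values, so whether they stayed or moved was fixed in advance. Empty windows made up 26.0% of windows of 25 kb and 6.24% of windows of 100 kb. Coverage over the first 50 kb from the first region was 24.3%. Within 1 Mb and 4 Mb of the centromeric end, 57.0% and 28.3% of windows were empty. The share near the centromeric end was above that elsewhere under each of these settings, by 2.31 to 4.36 times, and by 7.43 times with windows of 100 kb. No paired analysis was possible because the input libraries have no region list and no test was run. The depth is unknown, so an empty window is one without a called region, and whether reads could be placed there was not tested.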

Other observations

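The heterochromatic scaffolds, which lie outside the tiled arms, were tiled in the same way for comparison. Of their 183 whole windows of 50 kb, 162 (88.5%) held no region of the combined list. The share was 89.2% on 2RHet, 90.2% on 3LHet and 92.0% on 3RHet. On the smaller scaffolds 5 of 7 windows were empty on 2LHet, 6 of 6 on YHet and 1 of 4 on XHet.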
